A study of Saccharomyces cerevisiae with 4 samples.

Results

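The 9 genes described here encode the ammonium permeases (MEP1, YGR121C; MEP2, YNL142W; MEP3, YPR138C), glutamine synthetase (GLN1, YPR035W), glutamate synthase (GLT1, YDL171C), glutamate dehydrogenases (GDH2, YDL215C; GDH3, YAL062W) and asparagine synthetases (ASN1, YPR145W; ASN2, YGR124W) of the budding yeast Saccharomyces cerevisiae. They were taken by systematic name from a table of 6301 open reading frames (ORFs), and all 9 had a value on all 4 arrays, as did 3765 genes in all. Transcripts of strain S288c in nitrogen-poor minimal medium (MM) were set against those in synthetic complete medium (SC), which is rich in nitrogen, on spotted ORF arrays, each hybridized with cDNA from both media under a different dye (Cy5 or Cy3). Cells kept in MM had spent 12 h at 0.025% ammonium sulfate, a limiting amount, without adenine or amino acids. Cells in SC were grown at 30°C and 160 rpm to mid log phase, an OD600 of 0.4, and the MM cells came from such cultures. Low ammonium, the loss of amino acids and adenine, and the longer incubation therefore changed together and cannot be told apart. The cDNA was primed with oligo-dT from 2 µg of mRNA, and the series text gives 2 biological replicates and dye swapping. Arrays of both dye orientations that bear the same replicate number were taken as 1 biological replicate, which the labels do not state array by array.

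Every value is a log2 ratio of MM over SC, so a positive value means more transcript in MM. The direction is likely and not certain, because the medium that a title puts in Cy5 is put in Cy3 by the annotation of that channel. It rests on the 5 genes for which the text of the study lists an MM over SC ratio from oligo-dT arrays, and all 5 had that sign here. The study picked these 5 as not significant on its oligo-dT arrays. Their mean log2 ratios here were in part close to 0 (0.034 for TMA16 and 0.16 for AIM34), the largest in size being -1.09 (YSR3). Taken alone, these 5 genes anchor the direction weakly. The paper also reports lower expression in nitrogen-poor medium for most genes of nitrogen and amino acid pathways. For energy-related pathways it reports a tendency to higher expression. How far the ratios here follow that pattern was not counted. With the opposite direction every sign below would turn. The dye orientations are named by the titles, which the 5 genes do not check. If the annotation holds instead, the names MM in Cy5 and SC in Cy5 swap throughout. The sign of every difference between the orientations then turns, while the ratios between the media stand. The ratios are relative to the mean of each array, so a change of all mRNA per cell was not measured, and fewer expressing cells and less RNA per cell cannot be told apart. A ratio compares the media for 1 gene and says nothing of how abundant a transcript was relative to that of another gene.

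In yeast, ammonium enters through the Mep permeases and is joined to carbon at glutamate and glutamine, which donate nearly all cellular nitrogen. Glutamine synthetase and glutamate synthase together form the cycle that makes both amino acids, NADP-dependent glutamate dehydrogenases make glutamate directly, and the NAD-dependent enzyme breaks it down. Many of these genes are controlled by GATA factors in nitrogen catabolite repression, the system that keeps genes for poor nitrogen sources silent while good sources last, and by Gcn4, the activator of amino acid biosynthesis.

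The arrays held between 4122 and 5941 values, fewer on the arrays of replicate 2, and the medians of their log2 ratios lay between -0.063 and 0.055. Both replicate means of a gene correlated across 2994 genes at r = 0.959, but at r = 0.042 across 771 genes in 4 runs of neighbouring systematic names. The runs were chosen with earlier results of these data known, so this contrast describes the split and is no test of it. The 9 genes all lie outside these runs. In the 29 measured genes around each of them the replicate means correlated at 0.830 (MEP2) to 0.973 (ASN2). Across the 9 genes themselves r was 0.959 between the replicates (rho 0.983), a description over genes that share the same arrays.

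Between the media 7 of the 9 genes differed (limma, adjusted p not above 0.05). Transcripts of MEP2, MEP3 and GDH3 rose in MM, and those of GLN1, GDH2, ASN1 and ASN2 fell. MEP1 and GLT1 did not pass. In the same fit 33.5% of all 3765 genes were called, 16.5% higher and 17% lower in MM. Of the genes outside the runs 40.4% were called, 19.9% higher and 20.4% lower. Without adjustment the same 7 genes had a p not above 0.05, and so had 48.3% of all genes. The sign was shared by all 4 arrays in the 7 called genes and in 59.7% of all genes (29.1% higher and 30.5% lower in MM). The median absolute log2 ratio was 0.89 over the 9 genes and 0.37 over all genes. These counts describe a chosen set and carry no test.

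**Figure D1:**
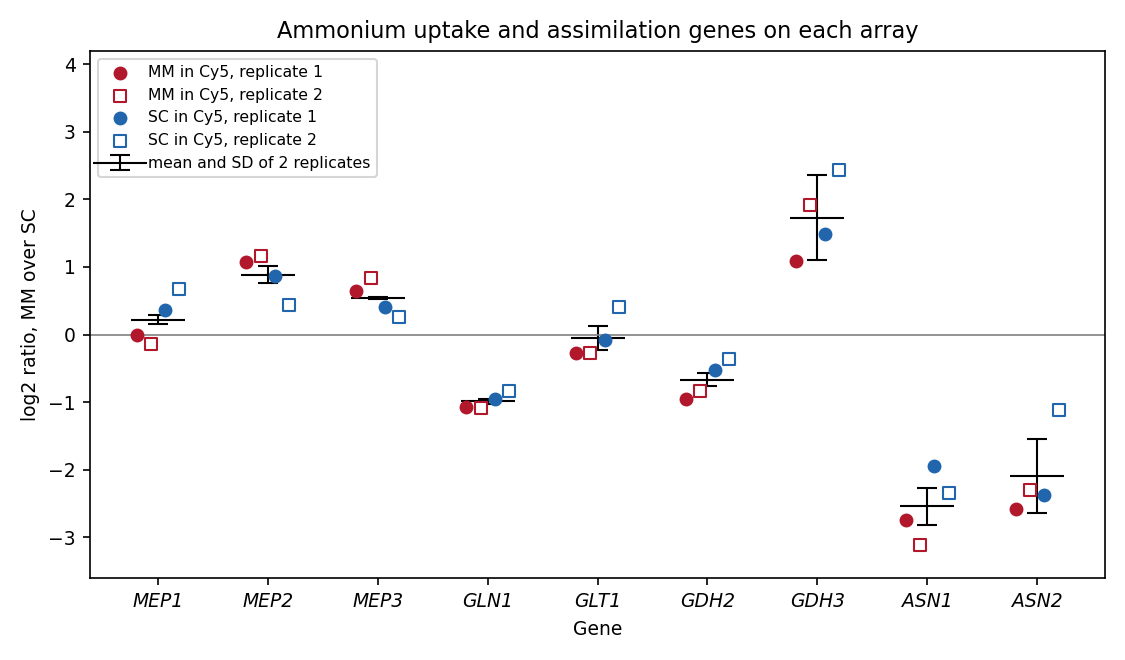
Log2 ratio of MM over SC on each of the 4 arrays (points; filled circles are replicate 1, open squares replicate 2, red MM in Cy5, blue SC in Cy5) for the 9 genes, with the mean and SD of the 2 replicate means (bars). GDH3 reached 2.44 on 1 array and ASN1 reached -3.12, while the points of MEP1 and GLT1 lie on both sides of 0.

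The permeases gave the smaller of the called rises. MEP2 encodes the high-affinity permease that also serves as an ammonium sensor for filamentous growth. Its log2 ratio was 1.07 and 1.16 on the arrays with MM in Cy5 and 0.87 and 0.44 on those with SC in Cy5, replicates 1 and 2 in this order. All 4 values were above 0, and the lowest came from a single array, SC in Cy5 of replicate 2. MEP2 averaged 0.89 ± 0.12 (SD, n = 2), a 1.85-fold higher level in MM (limma adjusted p 0.0194, 95% interval 0.57 to 1.21). The call was lost when MM in Cy5 of replicate 2 was left out, at 0.71 and an adjusted p of 0.0995.

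MEP3, the low-affinity permease of high capacity, stood at 0.64 and 0.84 with MM in Cy5 and at 0.41 and 0.26 with SC in Cy5. The replicate means of 0.53 and 0.55 were nearly the same, yet the orientations did not overlap. Its mean was 0.54 ± 0.017 (SD, n = 2), 1.45-fold higher in MM, with an adjusted p of 0.0337. This was the least secure of the 7 calls. It was lost without MM in Cy5 of replicate 1 (adjusted p 0.0629), without MM in Cy5 of replicate 2 (0.197) and without SC in Cy5 of replicate 2 (0.0520).

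MEP1, the remaining permease of the family, stood at -0.0096 and -0.14 where MM carried Cy5 and at 0.36 and 0.67 where SC did. The sign thus followed the dye orientation. Its mean was 0.22 ± 0.065 (SD, n = 2), and limma gave an adjusted p of 0.168 with a 95% interval of -0.072 to 0.51.

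Array by array, MEP2 lay above MEP3 on all 4 arrays, by 0.35 ± 0.14 in log2 ratio (SD, n = 2). It lay above MEP1 on 3 of 4, by 0.67 ± 0.19, and the exception was SC in Cy5 of replicate 2. MEP3 lay above MEP1 on 3 of 4 arrays too. These differences between genes were not tested, and neither was capture of cDNA of another permease gene by these spots.

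GLN1 encodes glutamine synthetase, which adds ammonium to glutamate. Its log2 ratio was -1.06 and -1.09 with MM in Cy5 and -0.96 and -0.83 with SC in Cy5. The 4 arrays spanned only 0.26, the narrowest range of the 9 genes. The mean of -0.99 ± 0.036 (SD, n = 2) corresponds to a 1.98-fold lower level in MM (limma adjusted p 0.0152), and the call held with any 1 array left out (adjusted p 0.0183 to 0.0386).

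GLT1 encodes the NADH-dependent glutamate synthase, which passes the amide nitrogen of glutamine to 2-oxoglutarate and so completes the cycle with glutamine synthetase. It was at -0.28 and -0.27 with MM in Cy5 and at -0.082 and 0.41 with SC in Cy5. Only 1 array was above 0, and replicate means of -0.18 and 0.069 straddled it. The mean was -0.055 ± 0.17 (SD, n = 2; limma adjusted p 0.730, 95% interval -0.41 to 0.30). The genes of the cycle thus differed in log2 ratio by 0.93 ± 0.14 (GLT1 minus GLN1, SD, n = 2), with GLT1 the higher on 4 of 4 arrays, a description without a test.

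The glutamate dehydrogenases went in opposite directions. GDH2 encodes the NAD-dependent enzyme, which releases ammonium from glutamate. It was at -0.95 and -0.83 with MM in Cy5 and at -0.52 and -0.37 with SC in Cy5. All arrays were below 0, with the smaller falls in the SC in Cy5 orientation. GDH2 averaged -0.67 ± 0.0997 (SD, n = 2), 1.59-fold lower in MM (limma adjusted p 0.0273). The call was lost without MM in Cy5 of replicate 2, at -0.55 and an adjusted p of 0.124.

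GDH3 encodes an NADP-dependent, glutamate-forming isozyme, the paralog of Gdh1, and its transcript is known to be favoured when cells use non-fermentable carbon. It had the highest ratio of the 9 genes, at 1.08 and 1.91 with MM in Cy5 and 1.49 and 2.44 with SC in Cy5. Replicate 2 lay above replicate 1 in both orientations, by 0.83 and 0.95. The mean was 1.73 ± 0.63 (SD, n = 2), 3.32-fold higher in MM, and ranked 89 from the top of 3765 genes. The adjusted p was 0.0295 in limma, with a 95% interval of 0.89 to 2.57, and 0.0507 with robust moderation of the variances. Only 0.735% of genes outside the runs had a larger SD between replicates. GDH3 exceeded GDH2 on 4 of 4 arrays, by 2.40 ± 0.53 in log2 ratio (SD, n = 2). Whether the spotted ORF of GDH3 also captured cDNA of its paralog GDH1 was not tested.

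GDH1, which encodes the main NADP-dependent enzyme, could not be set beside them. It lies inside a run, with -1.32 and -1.02 on the arrays of replicate 1 (MM in Cy5, SC in Cy5) and 1.17 and 0.22 on those of replicate 2. The replicates had opposite signs, and the mean of -0.24 ± 1.32 (SD, n = 2; limma adjusted p 0.753) joins replicates that are unrelated in that part of the table.

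**Figure D2:**
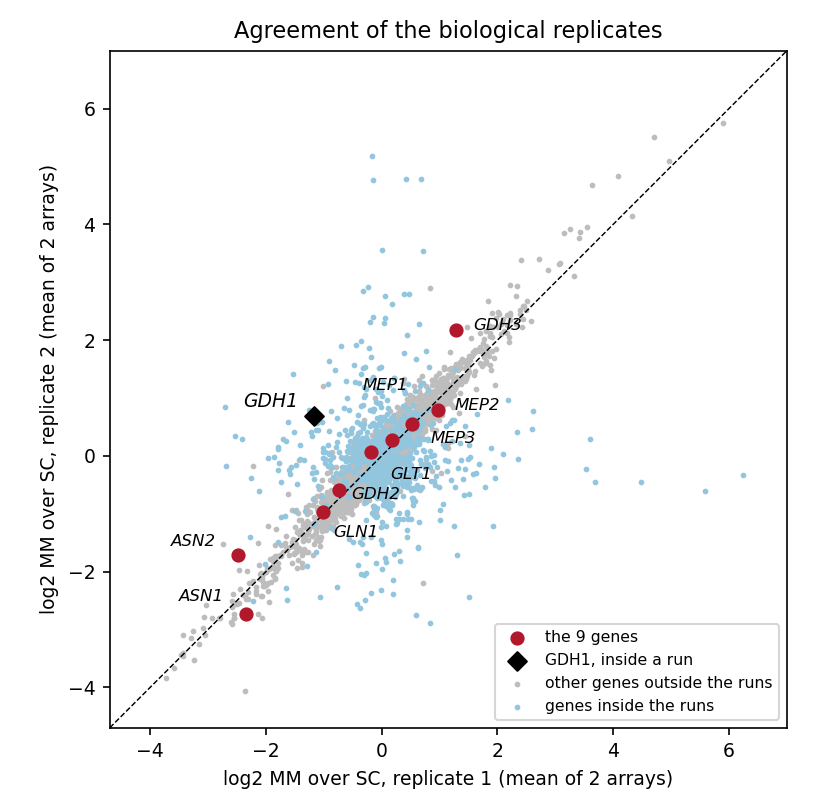
Mean log2 ratio of MM over SC in replicate 1 (x axis) and replicate 2 (y axis), each over 2 arrays, for the 9 genes (red), GDH1 (black diamond), the other genes outside the runs (grey) and the genes inside them (blue); the dashed line marks equal values. The 9 genes follow the line, with GDH3 and ASN2 furthest above it, while GDH1 lies far off it among the genes inside the runs.

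The asparagine synthetases fell most. ASN1 and ASN2 encode isozymes that transfer the amide nitrogen of glutamine to aspartate. ASN1 was at -2.74 and -3.12 with MM in Cy5 and at -1.95 and -2.35 with SC in Cy5. Every array showed a deep fall, less deep in the SC in Cy5 orientation. The mean of -2.54 ± 0.27 (SD, n = 2) was 5.81-fold lower in MM and ranked 27 from the bottom of 3765 genes (limma adjusted p 0.0092, 95% interval -2.98 to -2.10). The call held with any 1 array left out (adjusted p 0.00659 to 0.0220).

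ASN2 was at -2.59 and -2.30 with MM in Cy5 and at -2.38 and -1.12 with SC in Cy5. On 3 arrays the values lay close together and SC in Cy5 of replicate 2 stood apart. The mean of -2.10 ± 0.55 (SD, n = 2) was 4.27-fold lower in MM and ranked 59 from the bottom (limma adjusted p 0.0192). Without MM in Cy5 of replicate 2, which leaves that outlying array alone in its replicate, the mean was -1.80 and the adjusted p 0.0532. ASN1 minus ASN2 was -0.44 ± 0.82 in log2 ratio (SD, n = 2), 0.14 in replicate 1 and -1.03 in replicate 2, so the isozymes were not told apart. Whether the spotted ORF of either gene also captured cDNA of the other was not tested.

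Ordered by mean log2 ratio, the genes ran GDH3, MEP2, MEP3, MEP1, GLT1, GDH2, GLN1, ASN2 and ASN1. Neighbours were further apart than the sum of their SDs everywhere except between ASN2 and ASN1. These SDs leave out the spread between dye orientations, which each replicate mean averages. On the arrays with SC in Cy5 the mean of MEP1 (0.51) lay above that of MEP3 (0.33), against the order given. With n = 2 an SD is itself loosely known, and the gap of 0.85 between GDH3 and MEP2 barely exceeded the sum of 0.75.

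**Figure D3:**
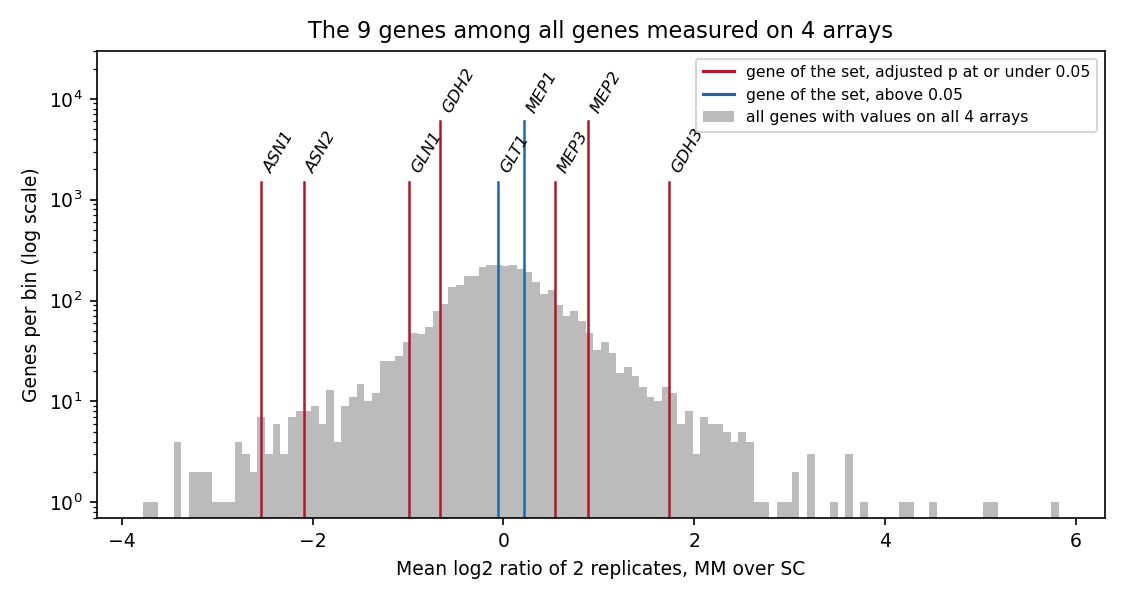
Number of genes (y axis, log scale) by mean log2 ratio of MM over SC (x axis) among the 3765 genes with values on all 4 arrays (grey), with vertical lines at the 9 genes (red where the limma adjusted p was at or under 0.05, blue where it was not). ASN1 and ASN2 lie in the low tail, with 0.691% and 1.54% of genes below them, GDH3 has 97.6% of genes below it, and GLT1 sits near the centre.

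Dye orientation shifted each of these genes in the same direction in both replicates (9 of 9), compared with 62.9% of all genes. The difference, MM in Cy5 minus SC in Cy5 as the titles name them, was negative in 7 of the 9 genes and in 60.3% of all genes. It was positive in MEP2 (0.46) and MEP3 (0.41). Its median size was 0.46 over the 9 genes and 0.22 over all genes. The widest were those of ASN1 at -0.78, ASN2 at -0.70 and MEP1 at -0.59, the narrowest that of GLN1 at -0.18. For MEP1 and GLT1 the difference was larger than the log2 ratio between the media. None of the 9 dye terms passed an adjusted p of 0.05 in limma (0.568 to 0.755). Without adjustment ASN1 (p 0.0266) and MEP1 (p 0.0326) did, 2 of the 9 in the limma fit. Of all genes 0.0266% passed with and 8.21% without adjustment, or 0.691% with adjustment once the replicate number was a block. In that blocked limma fit 0 of the 9 passed with and 5 without adjustment, where 15.8% of all genes passed without it, ASN1 having the lowest adjusted p (0.0832). As each mean holds both orientations equally, such a difference cancels in it but not when 1 array is left out.

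**Figure D4:**
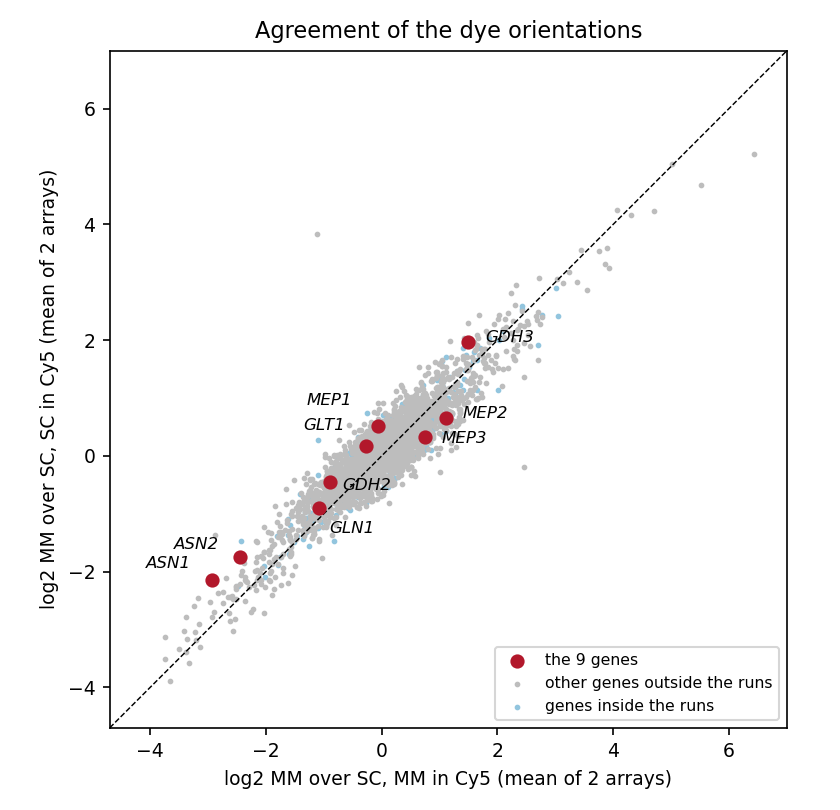
Mean log2 ratio of MM over SC on the 2 arrays with MM in Cy5 (x axis) and the 2 with SC in Cy5 (y axis) for the 9 genes (red), other genes outside the runs (grey) and genes inside them (blue); the dashed line marks equal values. MEP2 and MEP3 lie below the line and the other 7 genes above it, with MEP1 and GLT1 on different sides of 0 in the orientations.

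A list of 47 related genes was read from the same fit, 31 of which had values on all 4 arrays. Of these 31, 3 were called higher and 12 lower in MM, and their median log2 ratio was -0.35, compared with -0.019 over all genes. The share called was 48.4% of the 31, beside 33.5% of all 3765 genes (16.5% higher and 17% lower). All 15 calls were outside the runs, where 25 of the 31 genes lie and 40.4% of all genes were called. By group 37.5% of regulators, 28.6% of glutamate and aspartate enzymes and 66.7% of 2-oxoglutarate supply genes were called. For glutamine amidotransferases the share was 42.9% and for transporters 83.3%. These shares rest on few genes and carry no test. Apart from GDH1 and the gene with the largest called change in each direction of a group, the genes below were named after their values were seen.

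Among regulators, 0 of 8 measured genes were called higher in limma (1 rise, that of GCN4, had an unadjusted p not above 0.05) and 3 lower. GLN3, the GATA activator of nitrogen-repressed genes, fell to -1.62 ± 0.33. RTG3, an activator of the genes that supply 2-oxoglutarate, and NPR1, the kinase that keeps Mep2 active, fell to -1.49 ± 0.25 and -0.44 ± 0.045 (SD, n = 2; limma adjusted p 0.0162, 0.0147 and 0.0480). PAR32, an inhibitor of Mep1 and Mep3, stood at -0.35 ± 0.11, and GCN4 at 0.37 ± 0.16, neither past the threshold (adjusted p 0.0864 and 0.0910). DAL80, a GATA repressor inside a run, was at 0.78 and 0.58 in replicate 1 but at 5.32 and 4.27 in replicate 2, and its mean was not called (adjusted p 0.170).

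Of 7 measured genes that make or use glutamate or aspartate, 2 fell and 0 were called higher in limma. No rise had an unadjusted p of 0.05 or less, but 1 further fall did, that of PUT2 (-0.46, limma p 0.0317, adjusted p 0.0754). Inside the runs lie 3 of the 7 (GDH1, AAT1 and AAT2), with replicate means of opposite sign, so a call in either direction was unlikely for them. ASP1, the cytosolic asparaginase that degrades asparagine, was at -1.26 ± 0.0076 and GAD1, glutamate decarboxylase, at -0.68 ± 0.011 (SD, n = 2; limma adjusted p 0.0112 and 0.0234). ASP1 was thus lower in MM, as were the synthetase genes ASN1 and ASN2 of the opposite reaction. Enzymes that supply 2-oxoglutarate, the carbon skeleton of glutamate, were measured on all arrays for 3 of 8 genes. CIT2, the peroxisomal citrate synthase, fell to -2.80 ± 0.0087 and IDP1, mitochondrial isocitrate dehydrogenase, to -2.07 ± 0.042, both with an adjusted p of 0.00864. CIT1, the mitochondrial citrate synthase, was at 0.39 ± 0.16 and did not pass (adjusted p 0.0847).

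Glutamine amidotransferases consume the product of Gln1. Of 7 measured, HIS7 of histidine synthesis (-2.68 ± 0.17, adjusted p 0.00864) and URA7 of CTP synthesis (-1.32 ± 0.35, 0.0223) fell, while URA8, the other CTP synthase, rose by 0.77 ± 0.0029 (SD, n = 2; limma adjusted p 0.0195). Transporters had the largest median absolute log2 ratio of the groups, 2.40 over 6 measured genes. The plasma membrane permeases AGP1, DIP5 and GNP1, which take up asparagine, glutamine, glutamate or aspartate among others, fell to -3.42 ± 0.014, -3.26 ± 0.23 and -2.60 ± 0.026. ADY2 and ATO2, of a family linked to acetate transport and ammonia export, rose by 2.19 ± 0.16 and 2.09 ± 0.034 (SD, n = 2; all 5 with a limma adjusted p of 0.00864). Their relative ATO3 was at -0.56 ± 0.36 and did not pass (0.0937). 

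**Figure D5:**
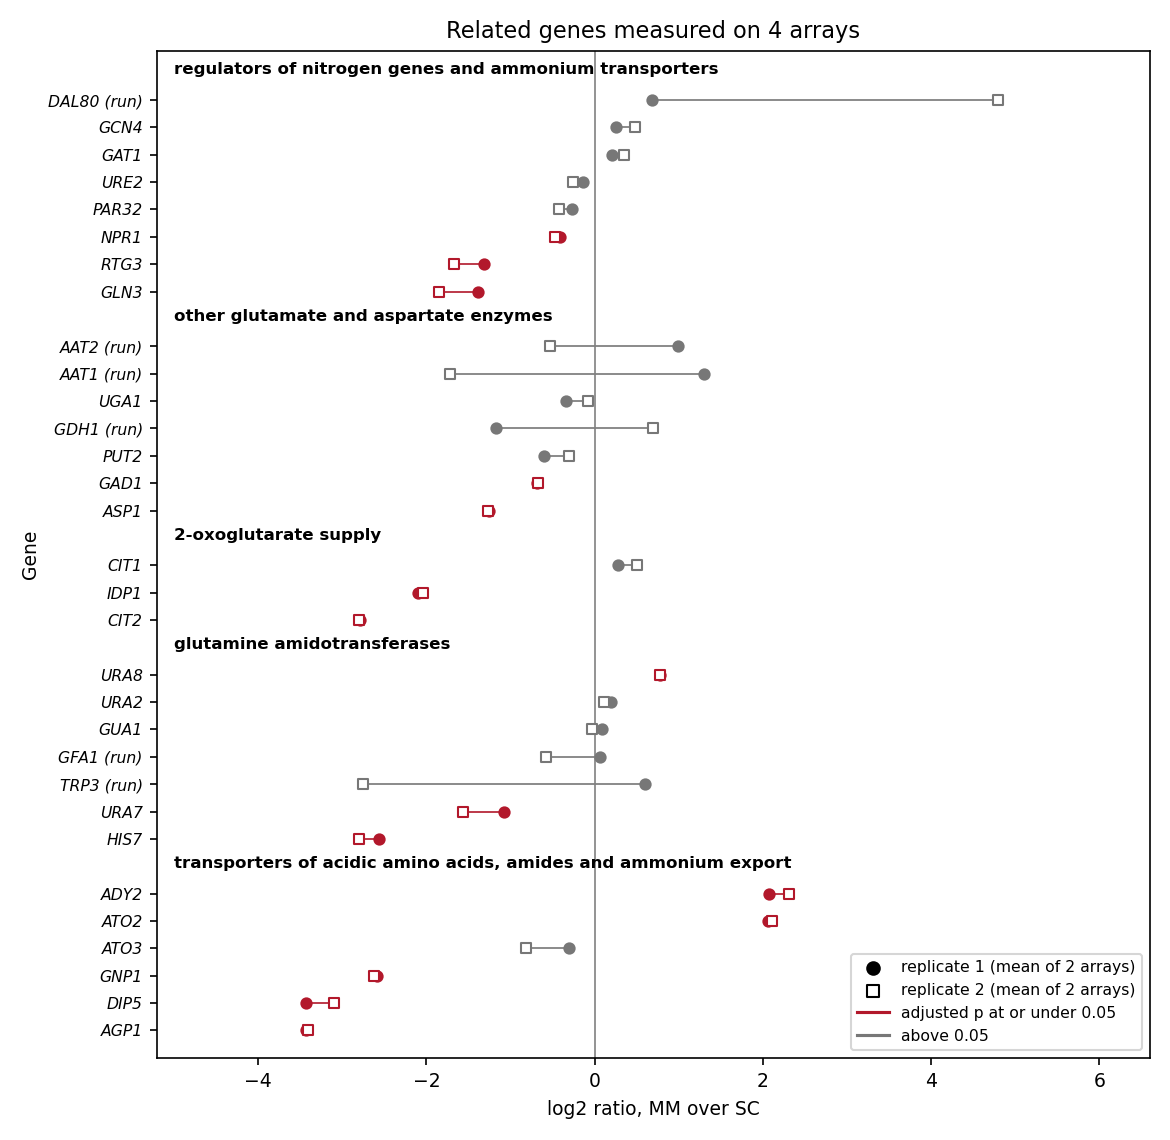
Log2 ratio of MM over SC (x axis) in replicate 1 (circles) and replicate 2 (squares), each a mean of 2 arrays, for the 31 related genes with values on all 4 arrays, grouped by role (red where the limma adjusted p was at or under 0.05, grey where it was not). Genes marked as in a run, such as DAL80, AAT1 and TRP3, have replicates far apart, and AGP1 and DIP5 lie furthest to the left.

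The genes whose 4 log2 ratios lay nearest to those of GDH3 and ASN1, the genes with the largest called rise and fall, were found by Euclidean distance among 2993 other genes outside the runs. Nearest to GDH3 were GND2 (a pentose phosphate pathway dehydrogenase, distance 0.31, mean 1.86), ITR1 (an inositol transporter, 0.46, mean 1.79) and CRH1 (a cell wall enzyme, 0.59, mean 1.49). GND2 shared the higher values of replicate 2, at 1.98 and 2.48 against 1.36 and 1.60 in replicate 1. Near to ASN1 were YAT2 (a carnitine acetyltransferase, 0.53, mean -2.40) and SSU1 (a sulfite pump, 0.54, mean -2.55). Likeness over 4 arrays of 1 contrast reflects mainly the size of the ratio.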

How the data were processed

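Per the paper's methods the authors scanned the arrays on a GenePix scanner, corrected each spot for its background, and scaled the channels to equal means over well measured spots. The deposited values are log2 ratios, 1 for each ORF on each array, and blank where a spot was not well measured. Neither scale nor direction is stated beside them. Arrays of both dye orientations correlated positively (r from 0.670 to 0.926), so all were taken as already turned 1 way. The number of arrays limits the precision.

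Symbols came from the RefSeq table of assembly R64, where 5801 of 6301 ORFs (92.1%) matched a locus tag. No build is named with the values and no coordinates are given. Arrays with the same replicate number were taken as dye swaps of 1 of the 2 biological replicates and averaged (n = 2). That they share RNA was assumed, and their consensus correlation in a fit without a dye term was -0.24 (duplicateCorrelation). The average over replicates was tested against a ratio of 0 by limma (version 3.58.1, R 4.3.3; lmFit, eBayes, two-sided) in all genes with values on all 4 arrays, and p-values were adjusted over all of them by Benjamini-Hochberg. The study's own Bayesian program was not used. The dye term was fitted on single arrays. The main fit of the medium ratio and the fit of the dye term were also run on simulated data. These had a common spread for all genes and left out the runs. That setting is simpler than the data, so it does not show how well the fits perform on them.

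The 9 genes, the related list, the runs and the tests were chosen with earlier results of these data known. Named genes are the 9 genes, GDH1, per related group the called genes with the largest rise and the largest fall, and the 3 genes nearest to GDH3 and to ASN1, of which 1 is not reported here. The alternatives were other treatments of replicates, other centrings, filters and moderation, single dye orientations, and the omission of single arrays.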

Additional observations from a re-analysis of the deposited data

Results flagged for a closer look

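The log2 ratio of MEP1 (YGR121C) was negative on both arrays with MM in Cy5 and positive on both arrays with SC in Cy5, a difference between the orientations of -0.59 on arrays that compare the same media. Replicate 1 gave a difference of -0.37 and replicate 2 one of -0.80. A larger mean difference was seen in 7.09% of all genes. The limma dye term had an unadjusted p of 0.0326 and an adjusted p of 0.568, or 0.0134 and 0.196 with the replicate number as a block. A dye effect on this spot cannot be told apart from any other effect of the orientation, as every array paired both media.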

How the results depend on the processing

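All alternatives were planned. Of 126 values of the 9 genes under them, 105 kept their direction and side of the threshold, 18 kept the direction but lost the call and 3 changed sign. The 105 include 13 of 14 values of MEP1 and 12 of 14 of GLT1, which count as kept because they stayed uncalled. All 18 lost calls thus fell on the 7 called genes. The call count of 7 of 9 was unchanged with arrays as independent samples, with the replicate block (duplicateCorrelation), with median or quantile centring and with the runs left out, and 6 with robust moderation, where GDH3 was lost. Of all 3765 genes 1979 were called with the replicate block and 1744 with arrays as independent samples, compared with 1263 in the main analysis. The block had a negative consensus correlation (-0.24), which makes the error of a mean smaller than with independent arrays. It is thus the less strict treatment. With the runs left out 1920 were called among 2994 genes, of which 1209 were called when all genes were fitted. The median SD between replicates was 0.099 outside the runs and 0.44 inside them. Leaving the runs out thus keeps the genes whose replicates agree and lowers the spread that the fit shares between genes. The unchanged count of 7 in that fit therefore gives the calls no further support. With SC in Cy5 only, 3 of the 9 genes (GLN1, GDH3, ASN1) and 574 of all genes were called. Without moderation limma called 0 of the 9 genes, 0 of the related genes and 0 of all genes (3, 12 and 877 at an unadjusted p at or under 0.05), since 1 degree of freedom is left. With single arrays left out, 3 to 7 of the 9 genes, 13 to 14 related genes and 570 to 1026 of all genes were called, the lowest counts of 3 and 570 without MM in Cy5 of replicate 2. MEP1 was at -0.072 with MM in Cy5 only. GLT1 was at 0.16 with SC in Cy5 only and between -0.22 and 0.11 with single arrays left out, positive only without MM in Cy5 of replicate 2. GDH1 was between -0.48 and 0.0023, and the dye difference of GDH3 between -0.94 and 0.0089, positive only without SC in Cy5 of replicate 2. The causes were not tested. No dye term of the 9 genes was called by limma in any alternative, and 0 to 5 of the 9 had an unadjusted p not above 0.05, as had 1.49% to 18.1% of all genes in those fits.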
